A study of Mus musculus with 16 samples.

Results

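The genes described here are the 10 desaturases and fatty acid elongases Scd1, Scd2, Fads1, Fads2, Fads3, Elovl1, Elovl2, Elovl3, Elovl5 and Elovl6, taken by symbol from the 55416 mouse gene IDs of the table. All 10 were found, and all passed the filter for testing, 1 TPM or more in at least 4 samples: 9 of them in all 16 samples and Elovl3 in 5. Their RNA was measured by RNA sequencing in primary hepatocytes, the main metabolic cells of the liver, kept in culture after isolation from mice. The HKO cells were Alb-cre+ and the FLOX cells Alb-cre-, from a cross meant to delete Smpd3, a membrane sphingomyelinase, wherever the albumin promoter drives the Cre recombinase. Cells of both kinds were kept for 24 h with 0.4 mM palmitic acid, a saturated fatty acid that serves as a culture model of fatty liver injury, or with vehicle. The 4 groups of 4 samples were HKO with palmitic acid, HKO with vehicle, FLOX with palmitic acid and FLOX with vehicle. Whether the replicates of a group are different mice is not stated in the labels, and the p-values rest on sample-to-sample scatter that may be purely technical.

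Fatty acid desaturases and elongases are enzymes of the endoplasmic reticulum that set the length and the number of double bonds of acyl chains. Stearoyl-CoA desaturases turn stearate and palmitate into the monounsaturated oleate and palmitoleate, and ELOVL6 lengthens palmitate to stearate. FADS2 and FADS1 put further double bonds into dietary polyunsaturated acids on the way to arachidonic, eicosapentaenoic and docosahexaenoic acid, with ELOVL5 and ELOVL2 as the elongases of that route. In liver, transcription of many of these genes follows SREBP1 and the liver X receptors.

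The values are TPM, a transcript abundance scaled by transcript length, so levels of different genes can be set side by side. TPM keeps no sequencing depth, which is therefore unknown. Smpd3 itself stood at 7.82 ± 1.1 TPM in HKO and 46.0 ± 2.4 TPM in FLOX cells with palmitic acid, and at 5.29 ± 0.71 and 32.0 ± 4.1 TPM with vehicle (mean ± SD, n = 4 in each group, as for all means below). All 7 hepatocyte markers examined reached 1 TPM, and their summed level was lower with palmitic acid, at 46622 to 48108 TPM in HKO with palmitic acid, 60453 to 61671 in HKO with vehicle, 44351 to 45865 in FLOX with palmitic acid and 56766 to 57443 in FLOX with vehicle. No adipocyte, stellate cell or lymphocyte and neutrophil marker reached 1 TPM, while 3 of 4 cholangiocyte markers, 2 of 5 endothelial markers (summed 1.75 to 4.13 TPM) and 2 of 6 macrophage markers did and the macrophage markers Adgre1 and Cd5l stayed under 0.1 TPM in every sample. The cholangiocyte markers summed to 34.8 to 44.9 TPM over all samples but moved in opposite directions: Krt19 averaged 5.39 TPM with palmitic acid and 11.9 TPM with vehicle in HKO cells, and 5.03 and 8.64 TPM in FLOX cells, Krt7 0.095 and 1.17 TPM in HKO cells and 0.28 and 2.31 TPM in FLOX cells, and Sox9 35.8 and 22.9 TPM in HKO cells and 34.9 and 25.9 TPM in FLOX cells. The summed macrophage markers, nearly all of it Cd68, a lysosomal protein, ran from 80.9 to 107 TPM in HKO with palmitic acid, 60.3 to 69.6 in HKO with vehicle, 55.5 to 68.1 in FLOX with palmitic acid and 48.4 to 55.0 in FLOX with vehicle, and the part of any of these marker groups in the results below was not tested. FLOX replicate 1 stood apart under both treatments: its median-ratio factor, a measure of the typical gene's level in a sample, was 0.976 with palmitic acid against 1.05 to 1.08 in the other 3, and 1.02 with vehicle against 0.936 to 0.963 in the other 3. In bulk samples a change in the share of a cell type and a change of RNA per cell cannot be told apart.

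With vehicle, Scd1 was by far the most abundant of the 10 genes, at 423.7 ± 24 TPM in HKO and 490.5 ± 44 TPM in FLOX cells. It supplied 43.3% ± 1.5 and 48.6% ± 1.5 of their summed TPM. Fads3, Elovl1, Fads2 and Fads1 came next, with means between 85.0 and 134 TPM. In HKO cells with vehicle the sample range of Elovl1 overlapped those of both its neighbours in the order, Fads3 above and Fads2 below, so these adjacent pairs did not differ beyond their spread, while Fads3 and Fads2 did not overlap. In FLOX cells with vehicle the ranges overlapped for Fads3 and Fads2, and also for Elovl2 and Scd2. Elovl5 followed at 36.9 ± 1.9 TPM in HKO and 38.2 ± 4.4 TPM in FLOX cells, then Elovl6, then Scd2 ahead of Elovl2 in HKO cells and Elovl2 ahead of Scd2 in FLOX cells, with Elovl3 last and below 1 TPM on average in every group. In HKO cells with vehicle the ranges of Elovl6 and Scd2 overlapped too. With palmitic acid Elovl1 stood second and Scd2 ninth in both genotypes, places that both genes already held in FLOX but not in HKO cells with vehicle. The only neighbours in the order whose ranges overlapped with palmitic acid were Fads3 and Fads2.

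**Figure D1:**
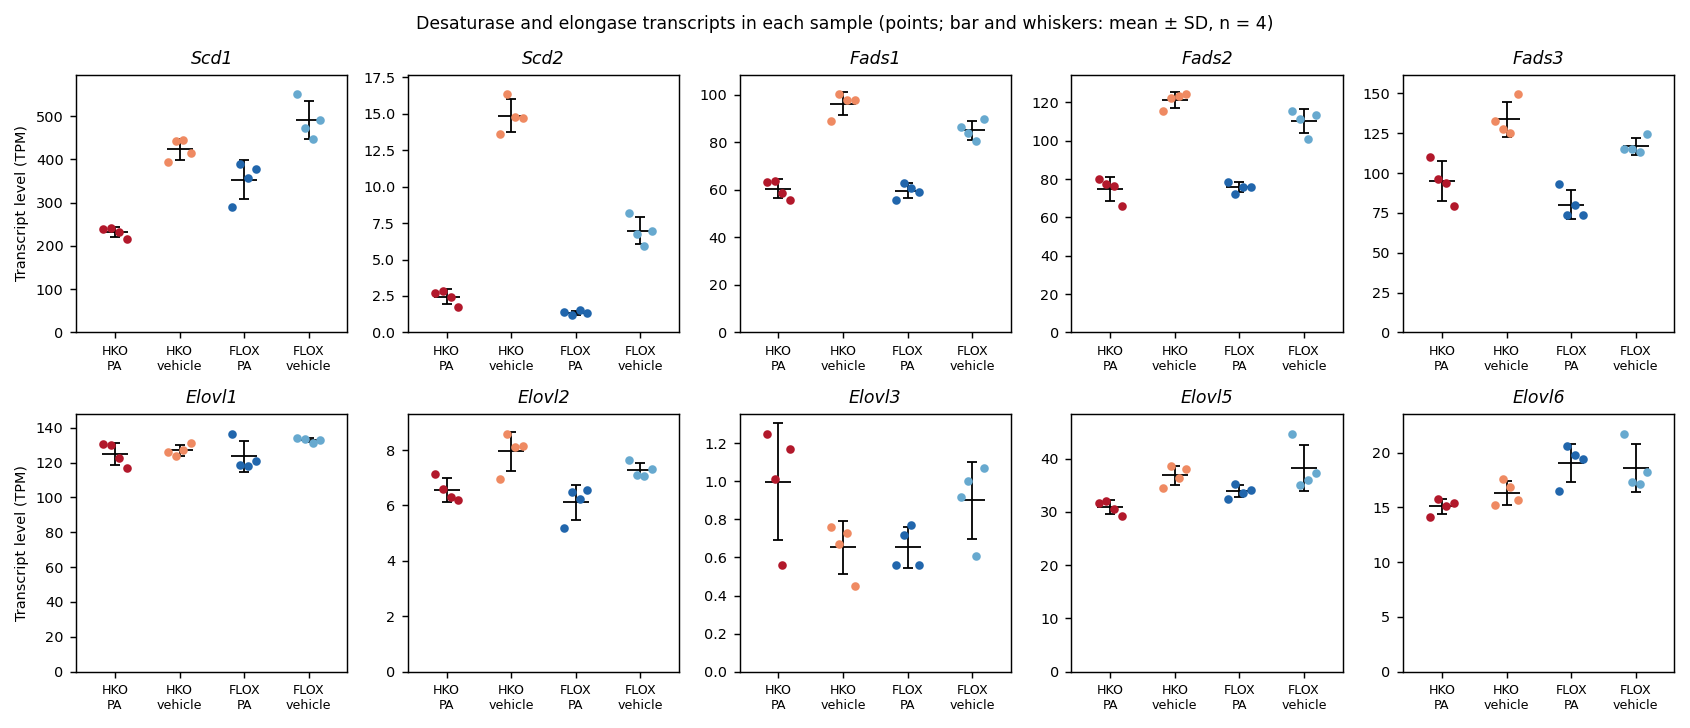
Transcript level in TPM (vertical axes, each from 0) of the 10 desaturases and elongases in every sample (points), by group along the horizontal axes, with the mean and SD of 4 samples. The Scd and Fads genes lie lower with palmitic acid (PA) than with vehicle in both genotypes, while Elovl1, at 117 to 137 TPM, overlaps between treatments.

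Palmitic acid lowered all 5 desaturases in cells of both genotypes. In HKO cells 7 of the 10 genes fell and none rose, where 13.1% of the 11858 genes tested fell and 29.4% rose (limma on log2(TPM + 1), Benjamini-Hochberg adjusted p under 0.05). In FLOX cells 6 of the 10 fell and none rose, where 11.5% of tested genes fell and 23% rose. The median log2 difference of the 10 genes was -0.37 in HKO and -0.35 in FLOX cells, against 0.11 and 0.096 over all tested genes. These medians above 0 come with TPM as deposited. Median-ratio scaling brought them to 0.005 in both genotypes, changed the calls over all genes to 2086 higher and 2363 lower in HKO and 1624 higher and 1997 lower in FLOX, and took every one of the 5 desaturases further down. The palmitic acid comparisons of the genotypes share no samples.

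Scd1 encodes the main stearoyl-CoA desaturase of adult mouse liver. In HKO cells it measured 238, 242, 233 and 215 TPM with palmitic acid, against 394, 443, 444 and 415 TPM with vehicle. In FLOX cells it measured 289, 389, 356 and 378 TPM with palmitic acid, against 550.4, 473, 448 and 491 TPM with vehicle. No sample with palmitic acid reached the lowest vehicle sample of its genotype. The log2 difference was -0.87 ± 0.082 in HKO and -0.48 ± 0.082 in FLOX cells (± SE, limma adjusted p = 6.53e-07 and 3.36e-04), so that 54.8% and 71.9% of the vehicle mean was left.

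Scd2 encodes a second stearoyl-CoA desaturase, known in mice for its high level in brain and for its part in lipid synthesis of the young liver. It measured 2.73, 2.84, 2.46 and 1.71 TPM with palmitic acid in HKO cells, against 13.6, 16.3, 14.8 and 14.7 TPM with vehicle. In FLOX cells it measured 1.37, 1.22, 1.52 and 1.30 TPM with palmitic acid, against 8.17, 6.76, 5.92 and 6.99 TPM with vehicle. The treatments lay far apart in both genotypes, with 16.4% of the vehicle mean left in HKO and 19.4% in FLOX cells. This was the deepest fall among the 10 genes, at -2.22 ± 0.11 and -1.75 ± 0.11 on the log2(TPM + 1) scale, which understates changes at such low levels (limma adjusted p = 4.80e-10 and 8.56e-09).

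The desaturases of polyunsaturated acids fell by similar amounts. Fads1, the enzyme of the last desaturation before arachidonic acid, measured 63.4, 63.8, 58.8 and 55.6 TPM with palmitic acid in HKO cells, against 89.1, 100.1, 97.5 and 97.8 TPM with vehicle. In FLOX cells Fads1 measured 55.6, 62.9, 60.8 and 59.1 TPM with palmitic acid, against 86.2, 83.7, 80.3 and 89.8 TPM with vehicle. The Fads1 ranges did not overlap between treatments, and the log2 difference was -0.66 ± 0.055 in HKO and -0.51 ± 0.055 in FLOX cells (limma adjusted p = 1.42e-07 and 3.55e-06). Fads2, the enzyme of the first and slowest step of that route, measured 79.9, 77.3, 76.5 and 65.8 TPM with palmitic acid in HKO cells, against 115, 122, 123 and 124 TPM with vehicle. In FLOX cells Fads2 measured 78.6, 72.4, 75.7 and 76.1 TPM with palmitic acid, against 115, 111, 101 and 113 TPM with vehicle. No Fads2 value with palmitic acid came near a vehicle value. Its log2 differences of -0.69 ± 0.057 and -0.53 ± 0.057 were close to those of Fads1 (limma adjusted p = 1.38e-07 and 2.92e-06). The ratio of Fads2 to Fads1 within a sample stayed near 1.24 ± 0.053 with palmitic acid and 1.26 ± 0.031 with vehicle in HKO cells, and 1.27 ± 0.11 and 1.297 ± 0.042 in FLOX cells. Fads3, which introduces a double bond into the sphingoid base of ceramides, measured 110.4, 96.2, 93.8 and 79.5 TPM with palmitic acid in HKO cells, against 133, 128, 125 and 149 TPM with vehicle. In FLOX cells Fads3 measured 93.1, 73.7, 79.8 and 73.8 TPM with palmitic acid, against 115, 115, 113 and 125 TPM with vehicle. The treatments again did not overlap, though Fads3 scattered more within a group than Fads1 or Fads2 did in HKO cells. Its log2 difference was -0.50 ± 0.091 in HKO and -0.55 ± 0.091 in FLOX cells (limma adjusted p = 4.02e-04 and 2.49e-04).

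Among the elongases the differences with palmitic acid were smaller. Elovl5, which lengthens the products of FADS2, measured 31.7, 32.1, 30.5 and 29.2 TPM with palmitic acid in HKO cells, against 34.44, 38.55, 36.41 and 38.00 TPM with vehicle, and the ranges did not overlap. Its log2 difference was -0.25 ± 0.065 in HKO (limma adjusted p = 0.00641) and -0.17 ± 0.065 in FLOX cells, where it missed the threshold (limma adjusted p = 0.0609) and passed it without FLOX vehicle replicate 2 (0.0364), with median-ratio scaling (6.43e-04) and with quantiles made equal (0.00169). Elovl2, the other elongase of the polyunsaturated route, averaged 6.56 ± 0.44 TPM with palmitic acid and 7.95 ± 0.71 TPM with vehicle in HKO cells, and 6.11 ± 0.64 and 7.29 ± 0.26 TPM in FLOX cells. Its log2 differences were -0.24 ± 0.079 and -0.22 ± 0.079 (limma adjusted p = 0.0212 and 0.0372). The Elovl2 calls rest on small margins. In HKO cells the call was lost with the replicate block (0.0786) and without palmitic acid replicate 3 or 4 or vehicle replicate 2, 3 or 4 (at most 0.0632). In FLOX cells it was lost in 11 of 26 alternatives, namely without palmitic acid replicate 1 (0.0933) or 3, without any 1 of the vehicle replicates (at most 0.0762), without both libraries numbered 1 (0.159), with the replicate block (0.116), with only the groups compared (0.0791), with no filter (0.0637) and with sample quality weights (0.0506).

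Elovl1 and Elovl6 did not pass the test with palmitic acid. Elovl1, which makes very long saturated and monounsaturated chains used in sphingolipids, averaged 125 ± 6.5 TPM with palmitic acid and 127 ± 3.2 TPM with vehicle in HKO cells, a log2 difference of -0.024 with a 95% interval of -0.12 to 0.075. In FLOX cells it averaged 124 ± 8.8 TPM with palmitic acid and 133 ± 1.3 TPM with vehicle, at -0.11 ± 0.046 (limma adjusted p = 0.0852). The highest of its 4 FLOX values with palmitic acid, 136.55 TPM, was replicate 1, and without that library the adjusted p was 0.00465. Median-ratio scaling (0.0227), quantile normalization (0.0405) sample quality weights (0.00469) and leaving out both libraries numbered 1 (0.00864) also brought the FLOX difference past the threshold. Elovl6 averaged 15.1 ± 0.71 TPM with palmitic acid and 16.3 ± 1.1 TPM with vehicle in HKO cells (-0.11 ± 0.080, limma adjusted p = 0.309), and 19.1 ± 1.8 and 18.6 ± 2.2 TPM in FLOX cells (0.037 ± 0.080, limma adjusted p = 0.756). In HKO cells the Elovl6 difference passed the threshold with median-ratio scaling (0.00559) and quantile normalization (0.00537). In FLOX cells, leaving out both libraries numbered 1 turned Elovl6 into a called rise of 0.17 (limma adjusted p = 0.0334).

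Elovl3, an elongase known for its induction in brown fat and its varying level in mouse liver, was close to the limit of what was tested. It reached 1 TPM in 3 HKO samples with palmitic acid and 2 FLOX samples with vehicle, and in no other sample. It measured 1.25, 1.01, 0.56 and 1.17 TPM with palmitic acid in HKO cells, against 0.76, 0.67, 0.73 and 0.45 TPM with vehicle, and the ranges overlapped. It averaged 0.65 ± 0.11 TPM with palmitic acid and 0.90 ± 0.20 TPM with vehicle in FLOX cells. None of its 5 comparisons passed the threshold (lowest limma adjusted p = 0.117, in HKO cells). Without HKO palmitic acid replicate 3, the difference in HKO cells did (0.0231).

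**Figure D2:**
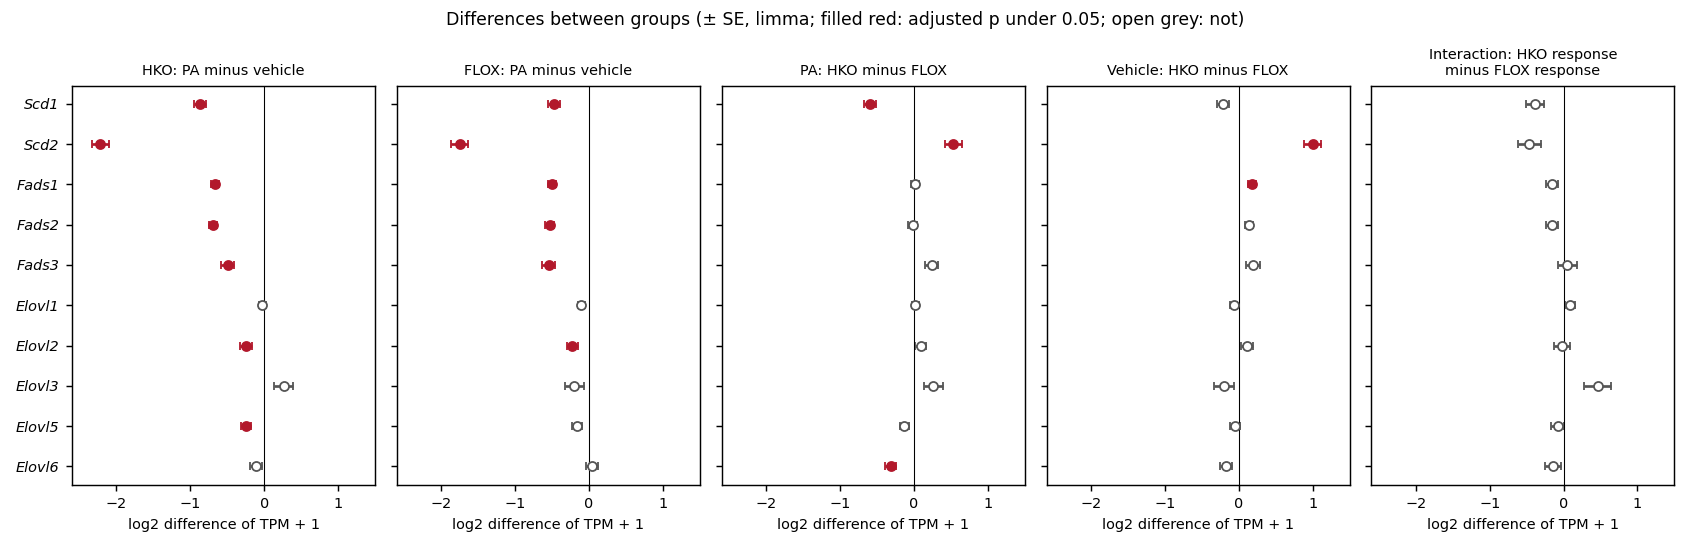
Log2 difference of TPM + 1 (horizontal axes, ± SE, limma fit over 16 samples) for each of the 10 genes (rows) in the 5 comparisons (panels), with filled red points where the adjusted p was under 0.05. Palmitic acid gives filled points below 0 for all 5 desaturases in both genotypes, and between genotypes Scd1 and Scd2 lie on opposite sides of 0.

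The genotypes differed chiefly in the Scd pair, and in opposite directions. Scd1 was lower in HKO cells with palmitic acid: its 4 values of 215 to 242 TPM lay below the 289 to 389 TPM of FLOX cells, a log2 difference of -0.59 ± 0.082 (limma adjusted p = 1.66e-04). With vehicle its range of 394 to 444 TPM in HKO cells also lay below the 448 to 550.4 TPM in FLOX cells, but the difference of -0.21 ± 0.082 missed the threshold (limma adjusted p = 0.124) and passed it only without FLOX palmitic acid replicate 1 (0.0332), which moves the shared estimate of the spread. Scd2 was higher in HKO cells under both treatments, 1.80-fold with palmitic acid and 2.13-fold with vehicle by the ratio of mean TPM. The log2 differences of Scd2 were 0.53 ± 0.11 and 1.00 ± 0.11 (limma adjusted p = 0.00533 and 1.72e-05), and neither call was lost in any of 26 alternatives. The comparisons under palmitic acid and under vehicle share no samples.

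Scd2 made up different shares of the Scd transcripts. Its share of Scd1 plus Scd2 was 1.03% ± 0.17 in HKO cells with palmitic acid and 3.39% ± 0.14 in HKO cells with vehicle. In FLOX cells the share was 0.388% ± 0.073 with palmitic acid and 1.40% ± 0.066 with vehicle. No sample of any group overlapped with a sample of another group, the closest being HKO with palmitic acid, at most 1.16%, and FLOX with vehicle, at least 1.31%. Such a share does not change with the scaling between samples. The transcripts of Scd1 and Scd2 are similar in part: of the distinct 50-base stretches of the annotated Scd1 transcripts 4.56% also occur in other genes, all of the Scd family, and of those of Scd2 3.97% occur elsewhere, mostly in Scd1. The files do not show how reads from such stretches were divided. Scd3 and Scd4, the other Scd genes of the mouse, did not reach 0.1 TPM on average in any group.

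**Figure D3:**
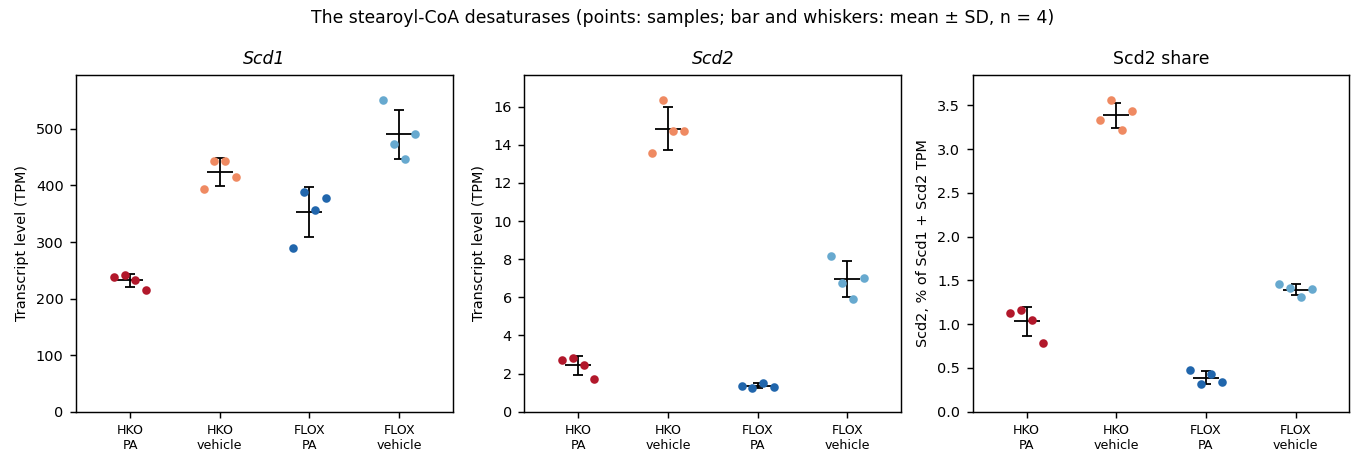
Scd1 and Scd2 levels in TPM (left and middle) and Scd2 as a percent of Scd1 plus Scd2 TPM (right) in each sample (points), with mean and SD of 4 samples per group. Within each treatment HKO samples lie below FLOX samples for Scd1, where only the difference with palmitic acid was called, and above them for Scd2. The Scd2 share keeps the 4 groups apart, from at least 0.31% in FLOX with palmitic acid to at most 3.56% in HKO with vehicle.

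Of the other 8 genes, few differed between genotypes. With palmitic acid 1 of all 10 genes was higher in HKO cells (Scd2) and 2 were lower (Scd1 and Elovl6), where 4.24% of tested genes were higher and 5.5% lower. Elovl6, of whose distinct 50-base stretches 3.98% also occur in other genes, chiefly Gm11295, measured 14.1, 15.7, 15.1 and 15.4 TPM in HKO cells with palmitic acid, against 16.5, 20.6, 19.8 and 19.4 TPM in FLOX cells. The Elovl6 ranges did not overlap, and the log2 difference was -0.32 ± 0.080 (limma adjusted p = 0.0191), a call lost without HKO palmitic acid replicate 1 (0.0638) or FLOX palmitic acid replicate 2 (0.0589), 3 (0.0552) or 4 (0.0512). Fads3 was 0.24 ± 0.091 higher in HKO cells with palmitic acid and missed the threshold (limma adjusted p = 0.119), but passed it without FLOX palmitic acid replicate 1 (0.0352), without HKO palmitic acid replicate 4 (0.0269), without both FLOX libraries numbered 1 (0.0414) and with sample quality weights (0.0145). Fads1 and Fads2 lay at 0.018 ± 0.055 and -0.019 ± 0.057, with 95% intervals of -0.098 to 0.13 and -0.14 to 0.10.

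With vehicle 2 of the 10 genes were higher in HKO cells (Scd2 and Fads1) and none was lower, where 4.11% of tested genes were higher and 7.56% lower. The Fads1 difference, 0.18 ± 0.055, only just passed (limma adjusted p = 0.0498). Its ranges of 89.1 to 100.1 TPM in HKO and 80.3 to 89.8 TPM in FLOX cells overlapped, and 17 of 26 alternatives ended the call. The call was lost without HKO palmitic acid replicate 1, 2 or 3, HKO vehicle replicate 2, 3 or 4, FLOX palmitic acid replicate 3 or 4, or FLOX vehicle replicate 1, 2 or 3, with adjusted p of 0.0503 to 0.139, and without both FLOX libraries numbered 1 (0.0501). Fads2 measured 115 to 124 TPM in HKO and 101 to 115 TPM in FLOX cells with vehicle, ranges that met without overlap, and its difference of 0.14 ± 0.057 missed the threshold (limma adjusted p = 0.143), passing it with quantile normalization (0.0225).

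Whether the response to palmitic acid differed between genotypes was tested with the interaction, that is, the log2 change in HKO cells less the log2 change in FLOX cells. None of the 10 genes passed (at an unadjusted p under 0.05 there were 3, Scd1, Scd2 and Elovl3, where 7.53% of tested genes reached that level). Elovl3 entered the test only through 3 HKO samples with palmitic acid and 2 FLOX samples with vehicle. High values in these groups raise the interaction, so the filter favoured its place in this count. At the adjusted threshold 0.0422% of tested genes were lower and 0.152% higher. Scd1 came closest, with an interaction of -0.39 ± 0.12 and an unadjusted 95% interval of -0.63 to -0.14 (limma adjusted p = 0.307). FLOX replicate 1 was the lowest Scd1 sample of its group with palmitic acid and the highest with vehicle. It enlarged the fall in FLOX cells and so made the Scd1 interaction smaller in size. Without FLOX palmitic acid replicate 1 the interaction of Scd1 passed the threshold (0.0454), as it did without both FLOX libraries numbered 1 (-0.54, limma adjusted p = 0.0209) and with sample quality weights (0.0308). Over all alternatives the adjusted p ran from 0.0209 to 0.703. The Scd2 interaction was -0.46 ± 0.16 (limma adjusted p = 0.412), and that of Elovl3 0.46 ± 0.18 (limma adjusted p = 0.542). For Scd2 the TPM + 1 scale shrinks the fall more in FLOX cells, where its level with palmitic acid was lower, and so enlarges the interaction. Of its vehicle mean TPM 16.4% was left in HKO and 19.4% in FLOX cells, and the interaction ran from -0.53 to -0.31 over the alternatives.

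The Fads genes lie side by side on mouse chromosome 19, in the order Fads3, Fads2, Fads1, and Scd2 and Scd1 lie farther along the same chromosome with Scd4 between them. Neighbouring protein-coding genes were looked up after the results were seen. Of the 4 genes on either side of the Fads cluster 5 were tested, and none fell in both genotypes. Over all tested genes 13.1% fell and 29.4% rose in HKO cells, and 11.5% fell and 23% rose in FLOX cells. At such shares few of any 5 genes would fall. Fth1, the ferritin heavy chain, rose with palmitic acid by 0.51 in HKO and 0.54 in FLOX cells, Tmem258, a subunit of the oligosaccharyltransferase, by 0.47 and 0.59, and Fen1, a nuclease of DNA replication, by 0.23 and 0.32. Myrf, a membrane-bound transcription factor, fell by 0.30 on the log2 scale in FLOX cells and missed the threshold in HKO cells (-0.19, limma adjusted p = 0.0784). Of the 6 tested genes around the Scd cluster, Bloc1s2, a subunit of complexes that place lysosomes, rose in both genotypes, by 0.34 in HKO and 0.36 in FLOX cells, and Ndufb8, a subunit of respiratory complex I, fell by 0.12 on the log2 scale in HKO cells. All these neighbour values are on the scale of the deposited TPM. On that scale the median of all tested genes was 0.11 in HKO and 0.096 in FLOX cells. The neighbours were not looked up with median-ratio scaling.

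**Figure D4:**
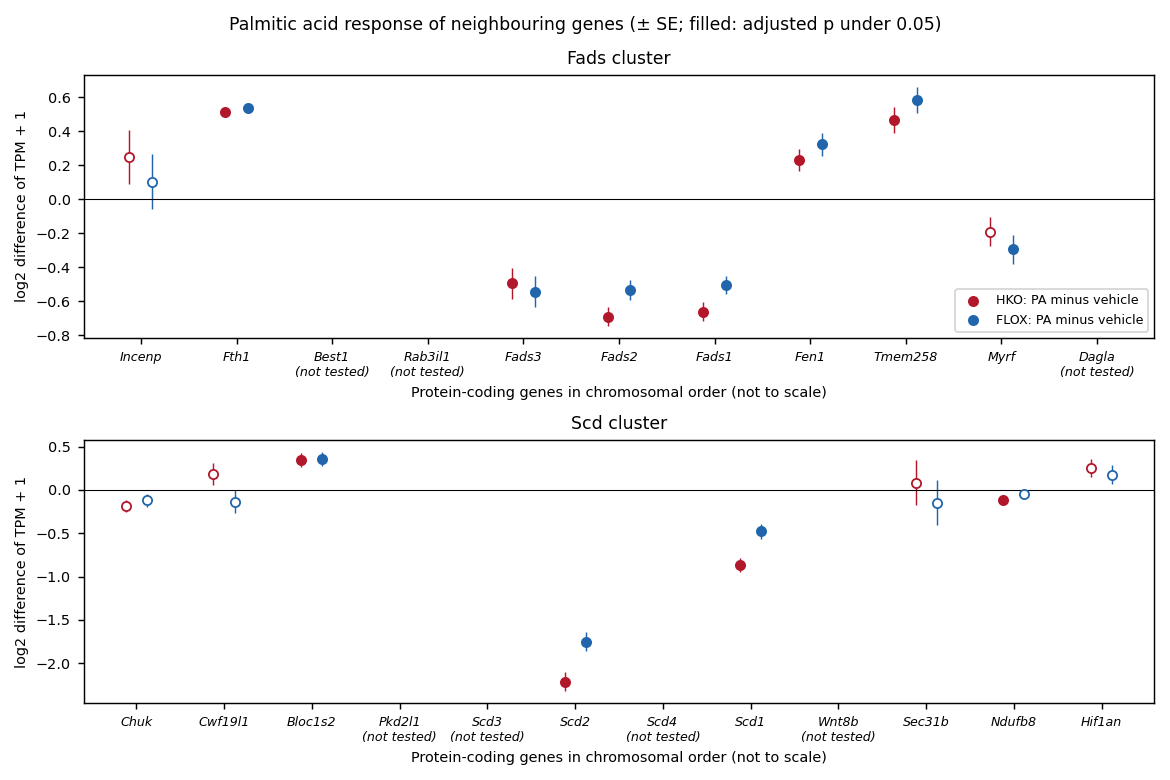
Log2 difference of TPM + 1 with palmitic acid (vertical axes, ± SE) for the Fads cluster (top) and the Scd cluster (bottom) and the 4 protein-coding genes on either side, in chromosomal order along the horizontal axes, in HKO (red) and FLOX (blue) cells, with filled points where the adjusted p was under 0.05. On the deposited TPM the Fads genes lie between -0.69 and -0.50, while their neighbours Fth1, Fen1 and Tmem258 lie above 0 and Myrf lies below 0 in both genotypes.

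RefSeq promoter sequences (GRCm38.p6) were at hand for 6 of the 10 genes, and all 6 are shown side by side. On the deposited TPM, Fads2, Fads3 and Elovl2 were called lower in both genotypes, Elovl5 in HKO cells, and Elovl1 and Elovl6 in neither. As given above, the calls of Elovl1, Elovl2, Elovl5 and Elovl6 changed in some alternatives. Each line gives the 250 bases before the first annotated start, 5′ to 3′ on the strand of the gene. They lie at chr19:10101504-10101753 (Fads2) and chr13:41220404-41220653 (Elovl2) on the minus strand, and at chr19:10041298-10041547 (Fads3), chr9:77917115-77917364 (Elovl5), chr4:118427843-118428092 (Elovl1) and chr3:129532136-129532385 (Elovl6) on the plus strand. Capitals mark matches on either strand to CCAAT, the box of NF-Y, to GGGCGG, the GC box, and to CACGTG, an E-box.
Fads2: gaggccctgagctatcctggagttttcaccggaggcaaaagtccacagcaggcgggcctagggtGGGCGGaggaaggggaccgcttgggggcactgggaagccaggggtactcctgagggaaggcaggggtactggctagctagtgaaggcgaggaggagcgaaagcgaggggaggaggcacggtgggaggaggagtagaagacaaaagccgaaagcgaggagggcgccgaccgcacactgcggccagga
Fads3: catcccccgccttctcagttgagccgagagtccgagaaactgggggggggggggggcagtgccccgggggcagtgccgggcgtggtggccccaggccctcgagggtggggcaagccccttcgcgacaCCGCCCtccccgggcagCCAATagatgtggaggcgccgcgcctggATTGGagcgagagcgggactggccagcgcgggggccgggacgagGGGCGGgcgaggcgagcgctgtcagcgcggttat
Elovl2: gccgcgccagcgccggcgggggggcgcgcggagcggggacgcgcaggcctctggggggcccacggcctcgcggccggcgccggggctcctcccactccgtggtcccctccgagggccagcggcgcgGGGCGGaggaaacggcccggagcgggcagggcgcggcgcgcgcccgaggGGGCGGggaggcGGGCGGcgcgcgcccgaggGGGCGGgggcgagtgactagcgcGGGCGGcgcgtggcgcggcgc
Elovl5: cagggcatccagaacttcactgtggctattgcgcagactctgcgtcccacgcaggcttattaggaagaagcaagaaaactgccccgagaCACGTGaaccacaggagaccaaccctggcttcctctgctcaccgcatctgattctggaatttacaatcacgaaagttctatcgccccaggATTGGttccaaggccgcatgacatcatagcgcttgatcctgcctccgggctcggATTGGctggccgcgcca
Elovl1: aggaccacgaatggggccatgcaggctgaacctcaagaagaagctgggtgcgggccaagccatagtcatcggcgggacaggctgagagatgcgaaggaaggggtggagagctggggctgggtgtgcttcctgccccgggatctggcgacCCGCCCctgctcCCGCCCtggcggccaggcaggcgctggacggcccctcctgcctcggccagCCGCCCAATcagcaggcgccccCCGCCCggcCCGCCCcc
Elovl6: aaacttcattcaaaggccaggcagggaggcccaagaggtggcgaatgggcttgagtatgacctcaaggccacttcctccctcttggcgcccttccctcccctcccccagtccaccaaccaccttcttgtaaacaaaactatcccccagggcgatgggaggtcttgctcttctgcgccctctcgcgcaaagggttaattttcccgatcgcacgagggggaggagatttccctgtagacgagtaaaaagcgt
Fads2 holds 1 GC box, Fads3 holds 2 CCAAT boxes and 2 GC boxes, Elovl2 holds 5 GC boxes, and Elovl5 holds 2 CCAAT boxes and 1 E-box. Elovl1, not called in either genotype, holds 1 CCAAT box that overlaps 1 of its 5 GC boxes, and the window of Elovl6 holds no match. A further annotated start of Elovl1 has 2 GC boxes and one of Elovl2 has no match. Among 32851 promoter windows of this length 33.85% hold CCAAT, 32.7% GGGCGG and 6.02% CACGTG. The SREBP site searched, TCACNCCAC, occurs in 1.05% of windows and in none of these 6, and a TATA box (TATAAA) in 12.4% and in none of them. These windows are descriptions of sequence, and matches are not shown to be bound sites.

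Over the 16 samples, Scd2 resembled the Fads genes more than it resembled Scd1. The Pearson correlation of log2(TPM + 1) was 0.97 between Scd2 and Fads1, 0.96 with Fads2 and 0.92 with Fads3, against 0.61 between Scd2 and Scd1. Scd1 was most like Elovl5 among the 10 genes, at 0.89. These values describe patterns that are mostly differences between the 4 groups, which the samples share. Across all tested genes, those closest to Scd1 included Phka2, a subunit of phosphorylase kinase, and Gldc, the glycine decarboxylase, at 0.98 each. Closest to Scd2 were Acmsd, an enzyme of tryptophan breakdown, Selenbp2 and Ankrd23, at 0.99 each. Ankrd23 was 0.67 ± 0.057 higher in HKO than in FLOX cells with vehicle, a difference that its choice by likeness to Scd2 favours. Bhmt2, a methyltransferase of methionine synthesis, Lss, the lanosterol synthase, and Dpp4, a peptidase, were closest to Fads1 (0.99, 0.99 and 0.98), and Car14, a carbonic anhydrase, Ugt1a5 and the sulfate transporter Slc26a1 to Fads2 (0.99 each). For Elovl5 they were Gldc, Steap2 and Fech (0.93, 0.93 and 0.92), and for Elovl6 Nucks1, Ror1 and Rell1 (0.94, 0.93 and 0.93). Elovl3 had no close counterpart, with Ganc, an alpha-glucosidase, at 0.78.

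Genes that act beside these enzymes were looked up in 9 lists, with Lpcat3 in 2 of them. Beside their counts stand the shares over all tested genes given above, 13.1% lower and 29.4% higher in HKO cells and 11.5% lower and 23% higher in FLOX cells, which with median-ratio scaling were 19.9% lower and 17.6% higher in HKO cells and 16.8% lower and 13.7% higher in FLOX cells. The remaining reactions of the elongation cycle were lower for 4 of 5 tested genes with palmitic acid in HKO cells and 3 of 5 in FLOX cells, and none was higher. Tecr, the final reductase of the cycle, averaged 139 ± 12 TPM with palmitic acid and 189 ± 13 TPM with vehicle in HKO cells, and 132 ± 7.6 and 175 ± 1.8 TPM in FLOX cells, a fall of 0.44 and 0.41 on the log2 scale. Hacd1, a dehydratase of the cycle, stood at -0.29 ± 0.052 and -0.22 ± 0.052, Hacd3, another dehydratase, at -0.17 ± 0.054 and, short of the threshold, -0.13 ± 0.054 (limma adjusted p = 0.0193 and 0.0881), and Hsd17b12, the ketoreductase, at -0.16 ± 0.040 and -0.11 ± 0.040 (limma adjusted p = 0.00496 and 0.0488). Of the genes listed as electron donors of desaturases, 2 of 5 fell in both genotypes: Cyb5r3, a cytochrome b5 reductase, at -0.58 ± 0.054 in HKO and -0.55 ± 0.054 in FLOX cells, and Cyb5b at -0.30 ± 0.061 and -0.27 ± 0.061. Cyb5a, the most abundant of this list at means of 913 to 988 TPM, was not called (-0.082 and -0.065, limma adjusted p = 0.141 and 0.261). It was called lower in HKO cells with median-ratio scaling and in both genotypes with quantile normalization. Cyb5r1 rose by 0.31 ± 0.077 in HKO cells, a call lost with median-ratio scaling and with quantile normalization (log2 difference 0.19 in each).

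The enzymes that make palmitate and its precursors were lower for 7 of 11 tested genes in each genotype and higher for none, with a median of -0.25 in HKO and -0.23 in FLOX cells. Acss2, the cytosolic acetyl-CoA synthetase, fell most, to 14.6 ± 0.63 TPM with palmitic acid, against 43.0 ± 1.2 TPM with vehicle in HKO cells, and to 15.96 ± 1.2 against 40.3 ± 2.7 TPM in FLOX cells. Acaca and Acacb, the acetyl-CoA carboxylases, stood at -0.92 ± 0.13 and -0.48 ± 0.11 in HKO cells and -0.70 ± 0.13 and -0.33 ± 0.11 in FLOX cells, and the fatty acid synthase Fasn at -0.67 ± 0.067 in HKO and -0.69 ± 0.067 in FLOX cells. Other targets of the liver X receptors and SREBP1 were lower for 7 of 8 tested genes in each genotype, with a median of -0.51 in HKO and -0.41 in FLOX cells. Pnpla3, a lipase of lipid droplets, stood at -0.93 ± 0.13 and -0.72 ± 0.13, Abcg5, a sterol exporter, at -0.87 ± 0.10 and -0.51 ± 0.10, and Abca1, a cholesterol exporter, at -0.80 ± 0.17 and -0.71 ± 0.17. Pnpla3, counted among the 7, reached at most 0.59 TPM with palmitic acid in either genotype. It passed the filter through vehicle samples alone, which favours a fall. Abcg5 was also low, at means of 0.915 TPM in HKO and 1.24 TPM in FLOX cells with palmitic acid. So were 2 others counted among the 7. Abcg8 averaged 0.81 TPM in HKO and 0.708 TPM in FLOX cells with palmitic acid, and Pltp 0.855 TPM in HKO cells with palmitic acid. The eighth gene, Lpcat3, which places polyunsaturated chains into phospholipids, rose to 104 ± 3.7 TPM with palmitic acid, against 73.2 ± 1.9 TPM with vehicle in HKO cells, and to 112 ± 5.9 against 79.3 ± 8.0 TPM in FLOX cells (0.50 ± 0.058 in each, limma adjusted p = 5.48e-06 and 8.22e-06).

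Among transcription regulators of these pathways 3 of 15 rose and 3 fell in HKO cells, and 2 rose and 4 fell in FLOX cells. With median-ratio scaling 2 rose and 8 fell in HKO cells, and 1 rose and 7 fell in FLOX cells. Insig1, which retains SREBP in the endoplasmic reticulum and is itself a target of SREBP, stood at -0.64 ± 0.074 in HKO and -0.45 ± 0.074 in FLOX cells. Nr1h2, a liver X receptor, rose by 0.39 ± 0.060 and 0.28 ± 0.060. Nr1h3, the other liver X receptor, fell in both, at -0.21 in HKO and -0.19 in FLOX cells (limma adjusted p = 0.00389 and 0.00831). With median-ratio scaling Nr1h2 was still called higher and Nr1h3 lower in both genotypes. Srebf1, the gene of SREBP1, averaged 25.7 ± 1.5 TPM with palmitic acid and 26.2 ± 0.86 TPM with vehicle in HKO cells, and 22.4 ± 1.3 and 21.9 ± 1.9 TPM in FLOX cells, and did not pass the test (limma adjusted p = 0.756 and 0.681), but in HKO cells it was called lower with median-ratio scaling (-0.15) and quantile normalization (-0.14). Srebf1 was higher in HKO than in FLOX cells with vehicle (0.25 ± 0.062, limma adjusted p = 0.0149). Between genotypes the largest called differences in these lists were Pltp, the phospholipid transfer protein, at -1.31 ± 0.10 with palmitic acid and -1.22 ± 0.10 with vehicle, Acaa1b, a peroxisomal thiolase, at -0.95 ± 0.068 and -0.88 ± 0.068, and Pparg, a nuclear receptor of fat storage, at -0.62 ± 0.12 and -0.88 ± 0.12. Insig2, a relative of Insig1, was 0.36 ± 0.094 higher in HKO cells with palmitic acid (limma adjusted p = 0.0246).

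In the remaining lists some genes rose and others fell on the scale of the deposited TPM. Of the acyl-CoA synthetases, which activate fatty acids, 1 of 7 rose and 3 fell in HKO cells, and 1 rose and 2 fell in FLOX cells, but with median-ratio scaling none rose in either genotype and 4 fell in HKO and 3 in FLOX cells. Slc27a5, a bile acid and fatty acid ligase, stood at -0.26 ± 0.043 in HKO and -0.30 ± 0.043 in FLOX cells, Acsl1 fell in HKO cells (-0.24 ± 0.090), the transporter and ligase Slc27a4 rose by 0.15 ± 0.056 in HKO and 0.18 ± 0.056 in FLOX cells without keeping either call under median-ratio scaling, and Acsl5 was lower in HKO than in FLOX cells with palmitic acid (-0.33 ± 0.077). Of the peroxisomal genes, which include the last steps of docosahexaenoic acid synthesis, 1 of 7 rose and 3 fell in HKO cells, and 1 rose and 2 fell in FLOX cells, against 0 and 5 in HKO cells and 1 and 4 in FLOX cells with median-ratio scaling. Hsd17b4, the peroxisomal bifunctional enzyme, rose by 0.16 ± 0.049 in HKO cells (log2 difference 0.041 and not called with median-ratio scaling) and by 0.29 ± 0.049 in FLOX cells, and Scp2, the thiolase and sterol carrier, stood at -0.31 ± 0.039 and -0.20 ± 0.039. Of the acyltransferases that use unsaturated chains 2 of 7 rose and 1 fell in each genotype, and with median-ratio scaling 2 rose in each while 2 fell in HKO and 3 in FLOX cells. Agpat3 rose by 0.33 ± 0.042 in HKO and 0.29 ± 0.042 in FLOX cells, and Mboat1, with means of 0.48 to 1.28 TPM, stood at -0.44 ± 0.13 and -0.60 ± 0.13. Mboat1 reached at most 0.67 TPM in HKO and 0.72 TPM in FLOX cells with palmitic acid. It passed the filter through vehicle samples alone, which favours a fall. Of the other family genes only Elovl7, an elongase of saturated chains, Fads6 and Degs1 were tested. Elovl7 rose in both genotypes, to 10.1 ± 0.66 TPM with palmitic acid, against 8.42 ± 0.61 TPM with vehicle in HKO cells (limma adjusted p = 0.0128), and to 12.6 ± 0.71 against 9.43 ± 0.76 TPM in FLOX cells (limma adjusted p = 5.65e-04). With median-ratio scaling the log2 difference of Elovl7 in HKO cells was 0.13 and not called. Fads6 fell in HKO cells (-0.43 ± 0.13), where Degs1, the desaturase of ceramide synthesis, rose by 0.11 ± 0.043, but stood at -0.0084 and uncalled with median-ratio scaling. The largest called difference of Degs1, 0.33 on the log2 scale, lay between genotypes with vehicle. There Degs1 was lower in HKO cells, at 90.3 ± 3.4 TPM, against 114 ± 5.8 TPM in FLOX cells.

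**Figure D5:**
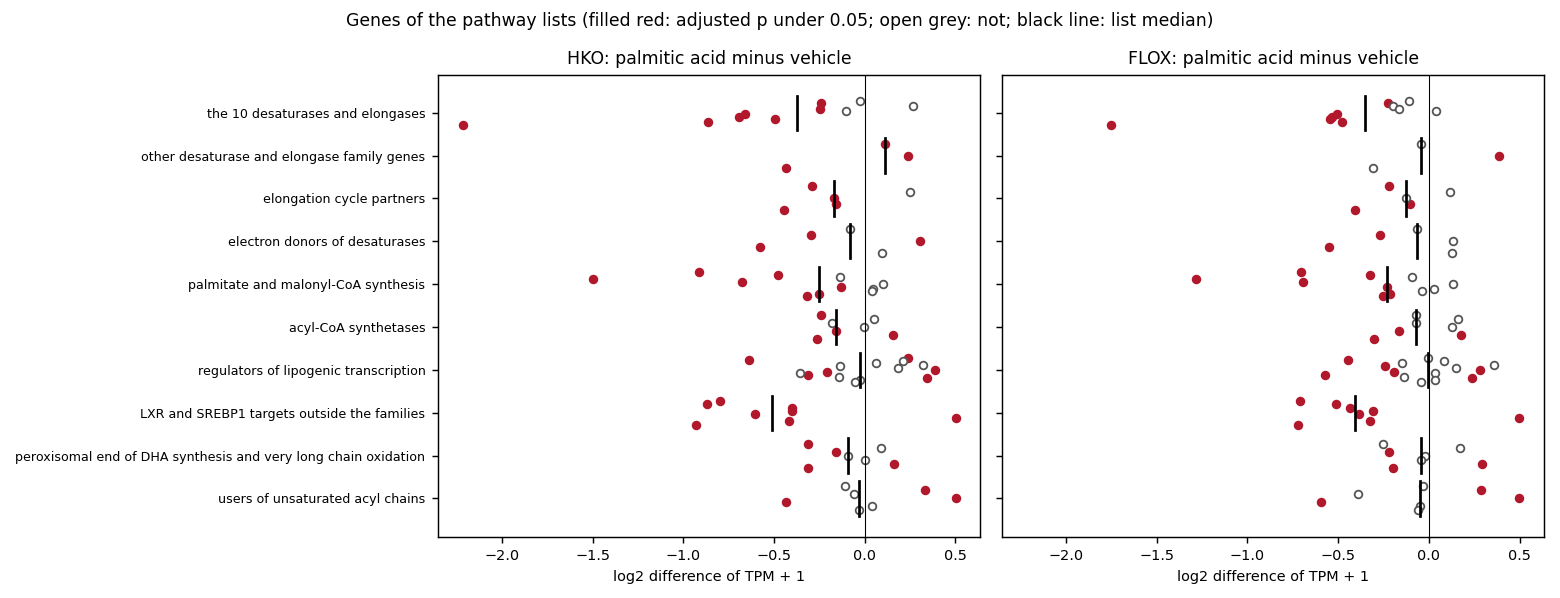
Log2 difference of TPM + 1 with palmitic acid (horizontal axes, the same scale in both panels) for each tested gene (points) of the 10 desaturases and elongases and of 9 related lists (rows), in HKO (left) and FLOX (right) cells, filled red where the adjusted p was under 0.05, with the list median as a black line. The medians of the 10 genes (-0.37 and -0.35) and of the liver X receptor and SREBP1 targets (-0.51 and -0.41) lie farthest below 0, and Lpcat3 is the point at 0.50 among those targets.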

How the data were processed

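RNA of 16 primary hepatocyte samples was sequenced from stranded total RNA libraries, per the labels' protocols. The authors deposited TPM values with 2 decimals for 55416 mouse Ensembl IDs, and RSEM 1.3.3 is named in the submitters' processing notes. The only build named there is a human build, which cannot be that of mouse IDs. Aligner and annotation: not given in the sources used here. Columns sum to 975816 to 984870 TPM. Symbols from a GENCODE table matched 94.0% of IDs.

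Genes at 1 TPM or more in at least 4 of the 16 samples (11858, all 10 members included) entered a fit by limma 3.58.1 (R 4.3.3) to log2(TPM + 1), with 1 mean per group, a mean-variance trend, 12 residual degrees of freedom, two-sided tests and Benjamini-Hochberg adjustment over all tested genes, at a threshold of 0.05. Alternatives are given in the closing section. The fit was tested on simulated data. Shared 50-base stretches came from GENCODE M21 transcripts, promoters from RefSeq. Related genes were named by rule: up to 4 per list with the largest called difference, and the 3 most correlated genes of 7 members. Some genes this rule names are not reported here. Srebf1, Nr1h3 and Abcg8 were named after their values were seen. Members and lists were chosen with earlier results of these data known.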

Additional observations from a re-analysis of the deposited data

Results flagged for a closer look

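In 40 sets of 4 values (10 genes in 4 groups), a sample far from the other 3 was looked for with Dixon's test at the 95% level, which by chance marks about 1 set in 20. It marked 2. Fads3 in FLOX vehicle replicate 4 was 124.66 TPM, the highest of its group, where the other 3 lay between 113 and 115 TPM. Elovl1 in FLOX palmitic acid replicate 1 was 136.55 TPM, the highest of its group, where the other 3 lay between 118 and 121 TPM. That library also had the lowest Scd1, Fads1, Elovl2, Elovl5 and Elovl6 values of its group. No interaction between genotype and palmitic acid passed the threshold among the 10 genes.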

How the results depend on the processing

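No alternative reversed a called difference of the 10 genes, and 1226 recomputed log2 differences kept their side of the threshold, while 21 newly passed it and 38 no longer did. Among the 10 genes, those lower with palmitic acid numbered 8 in each genotype with median-ratio scaling or quantile normalization, against 7 in HKO and 6 in FLOX cells. They numbered 6 in HKO and 5 in FLOX cells with the replicate block, and 5 in FLOX cells with no filter or only the groups compared. In FLOX cells 1 gene was higher with palmitic acid, against 0, without both FLOX libraries numbered 1. Between genotypes with palmitic acid 2 were higher, against 1, with sample quality weights and without both FLOX libraries numbered 1. With vehicle 3 were higher, against 2, with quantile normalization, and 1 was higher with only the groups compared, with the replicate block, with no filter, with a pseudocount of 0.1 TPM, without the mean-variance trend and without both FLOX libraries numbered 1. In the interaction 1 was lower, against 0, with sample quality weights and without both FLOX libraries numbered 1. Leaving out 1 sample at a time gave 0 to 1 higher and 6 to 7 lower with palmitic acid in HKO cells, 5 to 6 lower in FLOX cells, 1 to 2 higher and 1 to 2 lower between genotypes with palmitic acid, 1 to 2 higher and 0 to 1 lower with vehicle, and 0 to 1 lower in the interaction.

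Among the pathway genes, those higher with palmitic acid in HKO cells numbered 4 with median-ratio scaling and 6 with quantile normalization, against 10, and in FLOX cells 12 with sample quality weights or without both FLOX libraries numbered 1, against 7. Between genotypes with palmitic acid 1 was higher with no filter or only the groups compared, against 2, and with vehicle 5 were higher with median-ratio scaling, sample quality weights or without both FLOX libraries numbered 1, against 3. Leaving out 1 sample at a time gave 5 to 12 higher with palmitic acid in FLOX cells, and between genotypes 1 to 3 higher with palmitic acid and 1 to 5 higher with vehicle. The causes were not tested.

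Replicate numbers are shared across groups, but same-numbered samples did not deviate together (r from -0.15 to 0.11), so the numbers were not taken as pairs. With the replicate block the Elovl2 calls were lost (adjusted p = 0.0786 in HKO and 0.116 in FLOX cells), as was the Fads1 call between genotypes (0.0722), and no other call of the 10 genes changed. Depth is unknown, which limits what can be said of Elovl3 and of Scd2 with palmitic acid.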
